A study of Mus musculus with 8 samples.

Results

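Mouse small intestinal organoids grown for 6 days in Matrigel with 3 µM CHIR99021 plus 1 mM valproic acid (VPA) were compared with organoids of the same lines grown for 6 days in control medium. The comparison rests on 4 of the 8 arrays of the series, chosen by their labels: 2 of CHIR99021+VPA and 2 of control medium. The other 4 arrays, 2 of VPA at 1 mM and 2 of CHIR99021 at 3 µM, are used where the combination is set against its single compounds. Organoids are self-organising epithelial cultures grown from crypts, and all groups came from 2 organoid lines named in the labels as biological replicates, with 1 array of each group from each line. The sample was in Cy5 on every array, and control RNA of its own line was in Cy3. Dyes were never swapped, and the control arrays held control RNA in both dyes. No genetic change is given in the labels, and there were 2 lines only, so every p-value rests on the spread between 2 arrays a group, pooled over the 4 groups. The pooling takes the control arrays, with control RNA in both dyes, to vary as the treated arrays do. Across genes, the standard deviation of the log2 ratios was 0.23 and 0.203 on the control arrays. On the CHIR99021+VPA arrays it was 0.678 and 0.543. Whether the pooling makes the spread of the treated groups too small was not tested.

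CHIR99021 inhibits glycogen synthase kinase 3, the kinase that marks beta-catenin for destruction, and so switches on transcription through TCF and LEF factors, the output of Wnt signalling that keeps crypt stem cells dividing. VPA, a small branched fatty acid, blocks histone deacetylases and also enters fatty acid metabolism. In the crypt, stem cells marked by Lgr5 give rise to absorptive enterocytes and to the secretory goblet, Paneth, enteroendocrine and tuft cells, and Notch signalling between neighbouring cells sets the absorptive against the secretory choice. The series title concerns pure cultures of Lgr5-expressing intestinal stem cells, and the comparison asks what the pair of compounds does to the expression of genes that mark those cells.

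The measure is the log2 ratio of Cy5 over Cy3. A difference is the mean ratio of the 2 CHIR99021+VPA arrays minus that of the 2 control arrays, written with its standard error (SE), and a gene is said to have risen or fallen where limma's adjusted p was under 0.05. Of 19254 genes tested, 13971 had a symbol. Each array held 45018 spots, none was saturated, and 60.57% to 64.57% of non-control spots were well above background in Cy5. Outlier flags left out 162 to 328 spots an array. Within each line the CHIR99021+VPA array had the most, 328 in line 1 and 222 in line 2, followed by the CHIR99021 array (290 and 216). The number of arrays limits the precision. Across genes, the ratios on the 2 control arrays correlated (r = 0.823), and the difference between arrays removes what they share. Epithelial markers were bright in both groups: Epcam, an epithelial adhesion protein, had a mean log2 Cy5 signal of 14.79 with CHIR99021+VPA and 14.66 in control medium, and its log2 ratio differed by 0.06 ± 0.10 (adjusted p = 0.762), while 5 of the 12 epithelial genes fell. Markers of other cell types were dimmer: the median log2 Cy5 signal was 6.77 with CHIR99021+VPA and 6.85 in control medium for 10 mesenchymal genes. It was 6.41 and 6.56 for 9 immune genes, 7.64 and 7.47 for 4 endothelial genes, and 14.94 and 15.34 for 12 epithelial genes. The brightness of different probes gives no level between genes.

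CHIR99021+VPA changed 2989 of 19254 genes (15.5%) against control medium, 1623 upward (8.43%) and 1366 downward (7.09%). Goblet, Paneth and enterocyte genes held many of the deepest falls, the lipid-droplet gene Cidea and the stem cell gene Tnfrsf19 were among the largest rises, and Lgr5 itself did not pass the test. Rises were 54.3% of the calls, and 65.2% of 2132 calls when each array was centred on its median in place of loess. The median rise was 0.724 and the median fall 0.754 on the log2 scale. Falls reached further, with 39 genes lower by over 8-fold and 13 higher by over 8-fold. The 2 lines are shown against each other in the scatter of line differences: in line 1, 836 genes were over 2-fold higher and 750 over 2-fold lower, and in line 2, 519 and 513. With the line as a block in the fit the count was 4815 (2553 higher, 2262 lower). Without the control array of line 1 it was 542 and without that of line 2 it was 604, and without the CHIR99021+VPA array of line 1 it was 1789.

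**Figure D1:**
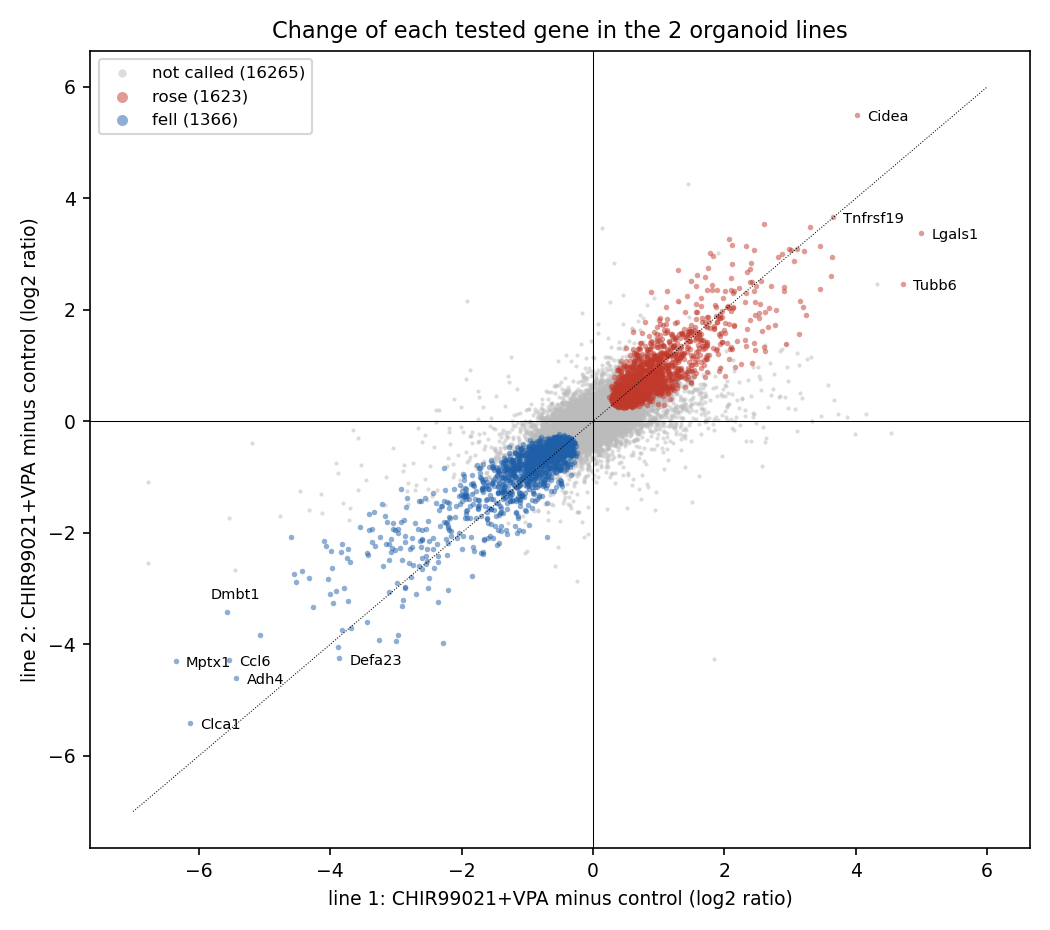
Each point is a tested gene, with its CHIR99021+VPA minus control difference (log2) in line 1 on the horizontal axis and in line 2 on the vertical axis. Genes that rose (1623, red) lie at upper right and genes that fell (1366, blue) at lower left; Tubb6 lies below the dotted line of equal change since it moved more in line 1.

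The 12 largest rises were led by Cidea, which encodes a protein of lipid droplets. Its log2 ratios were 4.25 and 5.66 with CHIR99021+VPA in lines 1 and 2, against 0.23 and 0.16 in control medium. The groups lay far apart, and the difference was 4.76 ± 0.68 (SE; adjusted p = 0.00669), a 27.1-fold rise. Lgals1, which encodes galectin-1, a sugar-binding protein, had ratios of 5.52 and 3.93 with the compounds and 0.53 and 0.54 in control medium, a difference of 4.19 ± 0.55 (adjusted p = 0.00507). Tnfrsf19 comes next and is described with the stem cell genes. Tubb6, a beta-tubulin, differed much between lines, at 4.69 and 2.46 with CHIR99021+VPA and -0.03 and 0.00 in control medium, for a difference of 3.59 ± 0.94 (adjusted p = 0.0481). Rgs10, a regulator of G protein signalling, was alike in both lines, at 3.29 and 3.38 against -0.01 and -0.11. Its difference of 3.40 ± 0.10 had a small SE (adjusted p = 7.46e-05). Epor, the erythropoietin receptor, stood at 3.12 and 3.08 in treated organoids and 0.01 and -0.02 in control organoids, a difference of 3.10 ± 0.10 (adjusted p = 8.99e-05). The other genes of the 12 were the GTPase regulators Arhgap22 (3.30 ± 0.30) and Arhgef25 (3.12 ± 0.37), the lysophospholipid acyltransferase Mboat2 (3.30 ± 0.30), the LIM-domain gene Crip2 (3.14 ± 0.09), the RNA-binding protein gene Rbms1 (3.07 ± 0.36) and Acbd7 (3.04 ± 0.22), of the acyl-CoA-binding family. Further probes of Rbms1 gave 0.85 and 1.07, and the mean of its probes gave 1.67. Without the control array of line 1, and likewise without that of line 2, the calls of Cidea (adjusted p = 0.0636 and 0.0638), Lgals1 (0.0543 and 0.0519) and Tubb6 (0.219 and 0.207) ended. Tubb6 also lost its call without the CHIR99021+VPA array of line 1 (difference 2.48, adjusted p = 0.177) and without either CHIR99021 array (adjusted p = 0.0813), which enter the fit through the shared spread.

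The deepest of the 12 largest falls was that of a goblet cell gene. Clca1, a protein secreted by goblet cells, had log2 ratios of -5.99 and -5.22 with CHIR99021+VPA, against 0.14 and 0.19 in control medium. Both treated arrays were far below both controls, a 54.6-fold fall (difference -5.77 ± 0.64, adjusted p = 0.00299). Adh4, an alcohol dehydrogenase, stood at -5.30 and -4.45 with the compounds and 0.14 and 0.14 without, a difference of -5.01 ± 0.38 (adjusted p = 0.00103). Mptx1, a mucosal pentraxin, fell more in line 1 than in line 2, with ratios of -6.41 and -4.01 against -0.06 and 0.28 (difference -5.33 ± 0.84, adjusted p = 0.00907). Dmbt1, a secreted scavenger receptor of mucosal surfaces, showed the same unevenness, at -5.66 and -3.52 against -0.09 and -0.11 (difference -4.49 ± 0.68, adjusted p = 0.00787). The remaining 8 genes, Ccl6, Chgb, Defa23, Zg16, Apoa1, Defa20, Slc6a19 and Defa3, had differences between -4.91 and -3.61 and are taken up with their cell types. The calls of Mptx1 (adjusted p = 0.0722 and 0.079) and Dmbt1 (0.0719 and 0.0695) ended without the control array of line 1 and without that of line 2. In bulk RNA, fewer cells of a type and less RNA per cell cannot be told apart.

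Among 24 tested genes of the stem cell list, 7 rose and 1 fell, beside 8.43% and 7.09% of all genes, and the list's median difference was 0.41, against 0.006 over all genes. Tnfrsf19, also called Troy, a receptor found on crypt stem cells, moved furthest. Its log2 ratios were 3.53 and 3.74 with CHIR99021+VPA, against -0.13 and 0.08 in control medium. The lines were close to each other, and the difference was 3.66 ± 0.54 (adjusted p = 0.00711), with the gene well above background on 1 of the 2 control arrays. Mex3a, an RNA-binding protein of slow-cycling Lgr5 cells, had ratios of 0.80 and 1.09 with the compounds and 0.28 and 0.20 without (difference 0.71 ± 0.12, adjusted p = 0.0118). Rnf32, a RING-finger gene, rose by 0.94 ± 0.17, Soat1, a cholesterol acyltransferase, by 1.01 ± 0.18, Nav1, a neuron navigator family gene, by 0.92 ± 0.19, Hopx, a homeodomain-only gene used as a marker of reserve stem cells, by 0.63 ± 0.16, and Esrrg, an orphan nuclear receptor, by 0.57 ± 0.13. A second Nav1 probe gave 0.29. Gkn3, a gastrokine listed among stem cell genes, went the other way, with -2.20 and -2.07 in treated organoids against 0.34 and 0.34 in control organoids (difference -2.48 ± 0.11, adjusted p = 0.000225).

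Lgr5, the R-spondin receptor that names these stem cells, had log2 ratios of 0.37 and 1.02 with CHIR99021+VPA, against 0.36 and -0.13 in control medium. Line 2 was higher by over 2-fold and line 1 scarcely differed, and the difference of 0.58 ± 0.35 did not pass the test (adjusted p = 0.329). Ascl2, a transcription factor of stem cells, stood at -0.25 and -0.18 with the compounds and 0.16 and -0.17 in control medium (difference -0.22 ± 0.14, adjusted p = 0.372). Other widely used stem cell genes had differences that did not pass, Smoc2, a matrix protein (0.74 ± 0.21, adjusted p = 0.0613), and Cd44, a hyaluronan receptor (1.11 ± 0.38, adjusted p = 0.104). Olfm4 was not tested. Leaving out the control array of line 1, or that of line 2, left 0 rises in the list, with Tnfrsf19 at adjusted p = 0.0707 and 0.0615, Mex3a at 0.0853 and 0.101 and Rnf32 at 0.113 and 0.0775. With the line as a block 10 members rose.

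Of 20 tested Wnt target and feedback genes, 6 rose and 0 fell, beside 8.43% and 7.09% of all genes. The list's median difference was 0.34. Nkd1, a feedback inhibitor of Wnt signalling, had log2 ratios of 1.56 and 1.87 with CHIR99021+VPA, against 0.19 and 0.31 in control medium, a difference of 1.46 ± 0.14 (adjusted p = 0.00191). A second Nkd1 probe gave 0.24. Tcf7 and Lef1 encode partners of beta-catenin on DNA. Tcf7 stood at 1.34 and 1.19 in treated organoids and 0.03 and 0.26 in control organoids (difference 1.12 ± 0.14, adjusted p = 0.00468). Lef1 stood at 0.82 and 1.15 in treated organoids and 0.19 and 0.09 in control organoids (difference 0.84 ± 0.13, adjusted p = 0.00941). Lef1 was well above background on 1 of the 2 control arrays, and the scanner software's own ratios gave 3.01 for it (adjusted p = 0.0646). Rnf43, a ubiquitin ligase that removes Wnt receptors, rose by 0.85 ± 0.13, Ephb2, a receptor that positions crypt cells, by 0.78 ± 0.16 and Lgr4, an R-spondin receptor, by 0.62 ± 0.12. Axin2, a direct feedback target of beta-catenin, had 0.33 and 0.46 against 0.06 and 0.06. Its difference of 0.33 ± 0.17 did not pass (adjusted p = 0.255), and neither did those of Sox9 (0.41 ± 0.18), Myc (0.25 ± 0.30) and Sp5 (0.71 ± 0.72). Over the 20 genes, 17 differences were positive and 3 negative, from -1.42 to 1.46, and none of the negative ones passed. Without the control array of line 1 the list held 1 rise and without that of line 2 it held 2. The calls of Rnf43 (adjusted p = 0.086 and 0.0741) and Lef1 (0.0716 and 0.0873) ended in both cases, and that of Tcf7 ended without the control array of line 1 (0.0537).

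**Figure D2:**
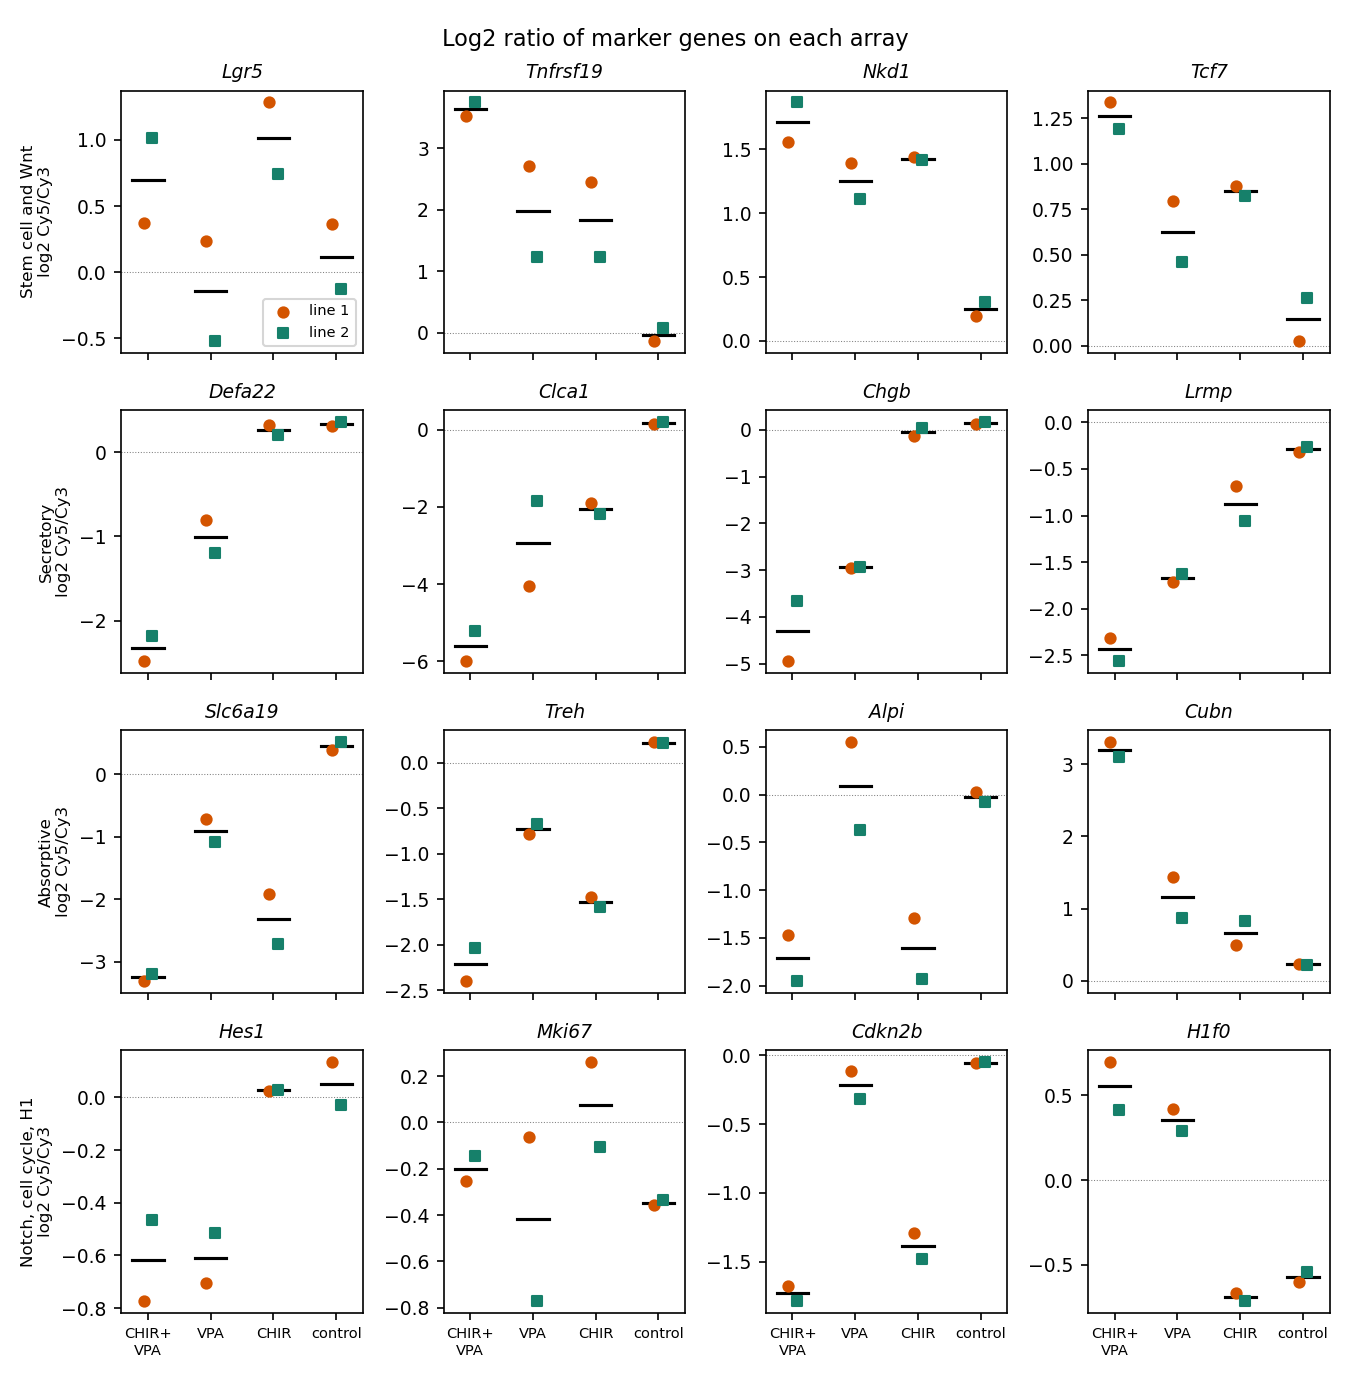
Log2 Cy5/Cy3 of 16 marker genes on each array, with line 1 as circles, line 2 as squares and a bar at the mean of the 2 lines, for CHIR99021+VPA, VPA, CHIR99021 and control. Tnfrsf19, Nkd1, Tcf7, Cubn and H1f0 were higher with CHIR99021+VPA than in control medium in both lines, Defa22, Clca1, Chgb, Lrmp, Slc6a19, Treh, Hes1 and Cdkn2b were lower in both, and Lgr5 and Mki67 were not called.

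The goblet cell list showed 14 falls and 1 rise among 24 tested genes, beside 7.09% and 8.43% of all genes. Its median difference was -1.97, with medians of -2.32 in line 1 and -1.87 in line 2. Goblet cells secrete the mucus layer. Ccl6, a chemokine, had log2 ratios of -5.46 and -4.03 with CHIR99021+VPA, against 0.08 and 0.25 in control medium, and the difference was -4.91 ± 0.53 (adjusted p = 0.00262). Spdef, the transcription factor that drives goblet and Paneth cell maturation, was close in both lines, at -2.59 and -2.83 against -0.09 and -0.02 (difference -2.65 ± 0.20, adjusted p = 0.00107). Fcgbp, a mucus protein, stood at -2.60 and -2.08 with the compounds and 0.03 and 0.07 without (difference -2.39 ± 0.17, adjusted p = 0.000826). Zg16, a lectin of mucus, had ratios of -3.96 and -3.98 against -0.08 and 0.06, a difference of -3.96 ± 0.82 (adjusted p = 0.0226). Falls were also called for Agr2, a folding enzyme needed for mucin (-2.79 ± 0.23), Ern2, a stress sensor of the secretory pathway (-1.56 ± 0.10), Tpsg1, a tryptase (-2.02 ± 0.09), and Tff3, a trefoil peptide (-1.97 ± 0.15). The list's riser was Galnt12 (0.71 ± 0.11), a glycosyltransferase that starts mucin-type sugar chains. Muc2, the main mucin, was not tested. The call of Zg16 ended without either CHIR99021+VPA array (adjusted p = 0.0795 without that of line 1, 0.0582 without that of line 2) and without either control array (0.131 and 0.137). The list held 10 falls without the control array of line 1 and 10 without that of line 2, and 20 with the line as a block.

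Paneth cells sit beside the stem cells and secrete antimicrobial peptides. Of 17 tested genes of their list, 7 fell and 0 rose, beside 7.09% and 8.43% of all genes. The list's median difference was -1.69. Defa22, an alpha-defensin, had log2 ratios of -2.48 and -2.18 with CHIR99021+VPA, against 0.31 and 0.36 in control medium. The groups were well separated (difference -2.66 ± 0.16, adjusted p = 0.000532). Defa20 (-3.70 ± 0.44) and Defa3 (-3.61 ± 0.27) of the list, and Defa23 (-4.05 ± 0.39) outside it, fell too, but alpha-defensin genes are near-identical copies and their probes may read each other's RNA. Other members of the list fell as well, among them Ang4, a microbicidal ribonuclease (-1.69 ± 0.23), Clps, colipase (-2.53 ± 0.36), and Guca2b, uroguanylin (-2.68 ± 0.29). The falls also include Tff3, which is counted in the goblet list too. Lyz1, Paneth cell lysozyme, was lower on both arrays, at -1.38 and -1.13 against -0.02 and -0.01, and just missed the threshold (-1.24 ± 0.33, adjusted p = 0.0501), passing it with the line as a block (0.0293). Wnt3, the Wnt ligand made by Paneth cells, had 0.37 ± 0.27 (adjusted p = 0.424). The list held 5 falls without the control array of line 1, 5 without that of line 2 and 12 with the line as a block.

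Enteroendocrine cells make hormones, and 5 of 21 tested genes of their list fell while 0 rose, beside 7.09% and 8.43% of all genes. Chgb, a protein of hormone granules, had log2 ratios of -4.94 and -3.67 with CHIR99021+VPA, against 0.13 and 0.16 in control medium, a 21.9-fold fall (difference -4.45 ± 0.36, adjusted p = 0.00124). Ghrl, which encodes ghrelin (-2.37 ± 0.42), Tph1, the enzyme for serotonin synthesis (-2.06 ± 0.25), and the transcription factors Pax4 (-1.54 ± 0.28) and Rfx6 (-0.74 ± 0.15) fell. Pax4 and Rfx6 were each well above background on 1 of the 2 CHIR99021+VPA arrays, and the scanner software's ratios gave -3.04 for Pax4. A second Tph1 probe gave -0.65. Hormone genes were uneven between lines: Chga, a granule protein like Chgb, stood at -4.04 and -1.72 with the compounds and -0.33 and 0.04 without, and the difference of -2.73 ± 0.89 did not pass (adjusted p = 0.0888, 0.00704 with the line as a block). Cck, cholecystokinin, had ratios of -4.46 and 0.17 with CHIR99021+VPA and 0.73 and 0.55 in control medium, lower by over 8-fold in line 1 alone. The list's medians were -1.61 in line 1 and -0.45 in line 2. The calls of Ghrl (adjusted p = 0.0982 and 0.0964) and Pax4 (0.0949 and 0.103) ended without the control array of line 1 and without that of line 2, which left 2 falls in either case, and the block gave 10.

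Tuft cells are chemosensory, and 3 of 21 tested genes of their list fell and 1 rose, beside 7.09% and 8.43% of all genes. The list was uneven between lines too, with medians of -1.23 in line 1 and -0.44 in line 2. Lrmp fell in both lines, with -2.31 and -2.56 against -0.31 and -0.26 (difference -2.15 ± 0.15, adjusted p = 0.000748). Trpm5, the cation channel of taste transduction, had -1.87 and -1.16 against 0.04 and 0.19 (difference -1.63 ± 0.39, adjusted p = 0.035). Hpgds, a prostaglandin D synthase, was not well above background on either CHIR99021+VPA array, so no size is given for its fall (adjusted p = 0.0328). Plcg2, a phospholipase of receptor signalling, rose by 0.86 ± 0.18. Dclk1, the usual tuft marker, stood at -2.55 and -0.19 with the compounds and 0.05 and 0.17 without, and did not pass (-1.48 ± 0.93, adjusted p = 0.354). Plcg2 (adjusted p = 0.106) and Trpm5 (0.142) lost their calls without the CHIR99021+VPA array of line 1, and Hpgds without that of line 2 (0.0519). Trpm5 also lost its call without either CHIR99021 array (0.0552). With the control array of line 1, or that of line 2, left out, adjusted p was 0.15 and 0.145 for Plcg2, 0.163 and 0.187 for Trpm5 and 0.172 and 0.168 for Hpgds. With the line as a block 11 members fell.

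The switches of the secretory fate were lower in part. Of 14 tested secretory progenitor genes, 3 fell and 0 rose, beside 7.09% and 8.43% of all genes. The falls were Spdef, Gfi1, a transcription factor of goblet and Paneth cells (-1.54 ± 0.22, adjusted p = 0.00676), and Dll1, a Notch ligand (-1.09 ± 0.19, adjusted p = 0.0124). Atoh1, the master factor of secretory cells, had log2 ratios of -1.36 and -0.75 with CHIR99021+VPA, against -0.42 and -0.40 in control medium. Both treated arrays were lower, and the difference of -0.65 ± 0.20 did not pass (adjusted p = 0.0712, 0.0204 with the line as a block). Neurog3, the enteroendocrine factor, had 0.19 and -0.77 against -0.18 and -0.41, higher in line 1 and lower in line 2. In the Notch list 4 of 24 tested genes rose and 4 fell, beside 8.43% and 7.09% of all genes. Hes1, the Notch target that represses Atoh1, fell to -0.77 and -0.46 with the compounds, against 0.13 and -0.03 in control medium (difference -0.67 ± 0.13, adjusted p = 0.0198), and so did Nrarp, a feedback regulator of Notch (-0.61 ± 0.10). Notch3, a receptor, had ratios of 2.59 and 2.03 against 0.12 and 0.12 and rose by 2.19 ± 0.18 (adjusted p = 0.00135). Hey1, another Notch target, was not well above background on either control array, so no size is given for its rise (adjusted p = 0.0183). Hes1 (adjusted p = 0.0739) and Hey1 (0.0692) lost their calls without the CHIR99021+VPA array of line 1. Leaving out the control array of line 1 or that of line 2 gave adjusted p of 0.153 and 0.0883 for Hes1, 0.1 and 0.069 for Nrarp, 0.0949 and 0.0954 for Dll1, 0.0964 and 0.138 for Hey1 and 0.0583 and 0.069 for Gfi1. The Notch list then held 1 rise and 0 falls in either case.

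Absorptive genes were lower across many functions: 28 of 46 tested enterocyte genes fell and 2 rose, beside 7.09% and 8.43% of all genes. The list's median difference was -1.39, with medians of -1.49 in line 1 and -1.26 in line 2. Enterocytes digest and absorb nutrients through brush-border enzymes and transporters. Among transporters, Slc6a19, which takes up neutral amino acids, had log2 ratios of -3.30 and -3.19 with CHIR99021+VPA, against 0.39 and 0.51 in control medium (difference -3.70 ± 0.25, adjusted p = 0.000748). It was well above background on 1 of the 2 CHIR99021+VPA arrays, and the scanner software's ratios gave -5.75. The fructose transporter Slc2a5 (-2.80 ± 0.37) and the glucose transporter Slc2a2 (-2.45 ± 0.32, with -1.61 on a second probe) fell, as did the sulfate transporter Slc13a1, which was not well above background on either CHIR99021+VPA array. Among brush-border enzymes, trehalase, Treh, stood at -2.40 and -2.04 with the compounds and 0.22 and 0.21 without (difference -2.43 ± 0.13, adjusted p = 0.000365). Sucrase-isomaltase, Sis (-3.12 ± 0.56), neprilysin, Mme (-2.66 ± 0.37, with -1.77 on a second probe), and intestinal alkaline phosphatase, Alpi (-1.68 ± 0.34, adjusted p = 0.0215), fell, although a second Alpi probe gave -0.29. The mean of the Alpi probes gave -0.98 and did not pass (adjusted p = 0.1425), nor did Alpi pass with the background model fitted on all spots (0.0825). Among lipid carriers, Apoa1 had ratios of -4.43 and -3.48 with CHIR99021+VPA and -0.18 and -0.16 in control medium (difference -3.79 ± 0.31, adjusted p = 0.00124), and Apoa4 (-2.65 ± 0.68), Apoc3 (-2.46 ± 0.48) and the retinol carrier Rbp2 (-2.67 ± 0.45) fell too. The brightest Apob probe gave -1.58 ± 0.36 and 3 of its 4 other probes between -0.57 and -0.20.

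Cubn and Ada were the enterocyte genes that rose. Cubn, cubilin, an endocytic receptor for vitamin B12 with intrinsic factor, had log2 ratios of 3.30 and 3.10 with CHIR99021+VPA, against 0.24 and 0.22 in control medium. Its difference of 2.97 ± 0.21 (adjusted p = 0.000757) was a 7.84-fold rise, and Ada, adenosine deaminase, rose by 1.30 ± 0.13. Krt20, a keratin of differentiated cells, had -0.40 and -1.74 against -0.16 and -0.12 and did not pass (-0.93 ± 0.40, adjusted p = 0.182). The call of Alpi ended without the CHIR99021+VPA array of line 2 (adjusted p = 0.0675) and without the control array of line 1 or of line 2 (0.142 and 0.119). The list held 6 falls without the control array of line 1 and 7 without that of line 2.

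Of 19 tested transcription factors of absorptive cells, 8 fell and 0 rose, beside 7.09% and 8.43% of all genes. The list's median difference was -0.50. Nr1i3, the nuclear receptor CAR that senses foreign compounds, had log2 ratios of -2.05 and -2.14 with CHIR99021+VPA, against 0.02 and -0.04 in control medium (difference -2.08 ± 0.11, adjusted p = 0.000352). Hnf4g, a factor of the enterocyte programme, fell by 1.36 on its brightest probe, with -0.08 on another. Ppara, the nuclear receptor for fatty acids, stood at -0.65 and -0.61 against 0.53 and 0.38 (difference -1.09 ± 0.12, adjusted p = 0.0028), and Creb3l3, a factor of lipid metabolism, fell by 1.66. Of 28 tested genes of foreign compound and oxidant handling, 8 fell and 0 rose, beside the same shares of all genes. In that list 12 genes had a positive difference and the median was -0.03. With the line as a block 10 fell and 6 rose, and without the CHIR99021+VPA array of line 2 it was 7 and 4. Cyp2b10, a CAR target in liver, had -3.32 and -2.12 with the compounds and 0.00 and 0.11 without (difference -2.78 ± 0.40, adjusted p = 0.00676), and glutathione transferases Gsta3 (-2.30 ± 0.21), Gsta1 (-1.87 ± 0.30) and Gsta2 (-1.64 ± 0.24) fell. The Cyp2b and Gsta genes each have close relatives whose RNA their probes may share. Without the control array of line 1 and without that of line 2, adjusted p was 0.0636 and 0.0614 for Creb3l3, 0.0628 and 0.0652 for Cyp2b10, 0.0611 and 0.0701 for Gsta2 and 0.0708 and 0.0798 for Gsta1, the factors held 3 falls in either case, and the foreign compound list held 1.

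Fatty acid oxidation genes and other targets of PPAR receptors were split, with 6 rises and 4 falls among 41 tested and a median difference of 0.01. Of all genes tested, 8.43% rose and 7.09% fell. The rises were Cidea, Acot1, an acyl-CoA thioesterase (1.94 ± 0.26), Slc25a20, the carnitine carrier (0.94 ± 0.17), Cpt1a, which commits fatty acids to mitochondria (0.66 ± 0.15), the peroxisomal gene Pex11a (0.61 ± 0.13) and Hadha, of the trifunctional protein (0.38 ± 0.09). The falls were Creb3l3, Ppara, the isomerase Eci1 (-0.87 ± 0.10) and the peroxisomal thioesterase Acot8 (-0.33 ± 0.09). Fabp1, a fatty acid binding protein, had log2 ratios of -2.14 and -0.72 with CHIR99021+VPA, against 0.36 and 0.49 in control medium. It was lower in both lines by unequal amounts and did not pass (-1.86 ± 0.60, adjusted p = 0.0869). The call of Acot1 ended without the control array of line 1 (adjusted p = 0.0543) and without that of line 2 (0.0553), 0 rises were left in the list in either case, and 12 rose with the line as a block.

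Antimicrobial genes gave 4 falls and 1 rise among 9 tested, beside 7.09% and 8.43% of all genes. Reg4 and Reg3a, secreted lectins of the Reg family, fell (-2.93 ± 0.24 and -3.11 ± 0.36), as did Pigr, the carrier of IgA (-1.15 ± 0.14). Reg3g, a lectin that kills Gram-positive bacteria, rose instead, with log2 ratios of 3.11 and 1.82 with CHIR99021+VPA and 0.49 and 0.56 in control medium (difference 1.94 ± 0.38, adjusted p = 0.0186). Reg3b, its close relative, had 1.90 and -4.32 against 0.06 and -0.06, higher in line 1 and lower in line 2, and Reg1 had -6.47 and -2.33 against 0.30 and 0.22 (adjusted p = 0.0561). The rise was not called without either control array, and Pigr had an adjusted p of 0.0509 without that of line 1.

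**Figure D3:**
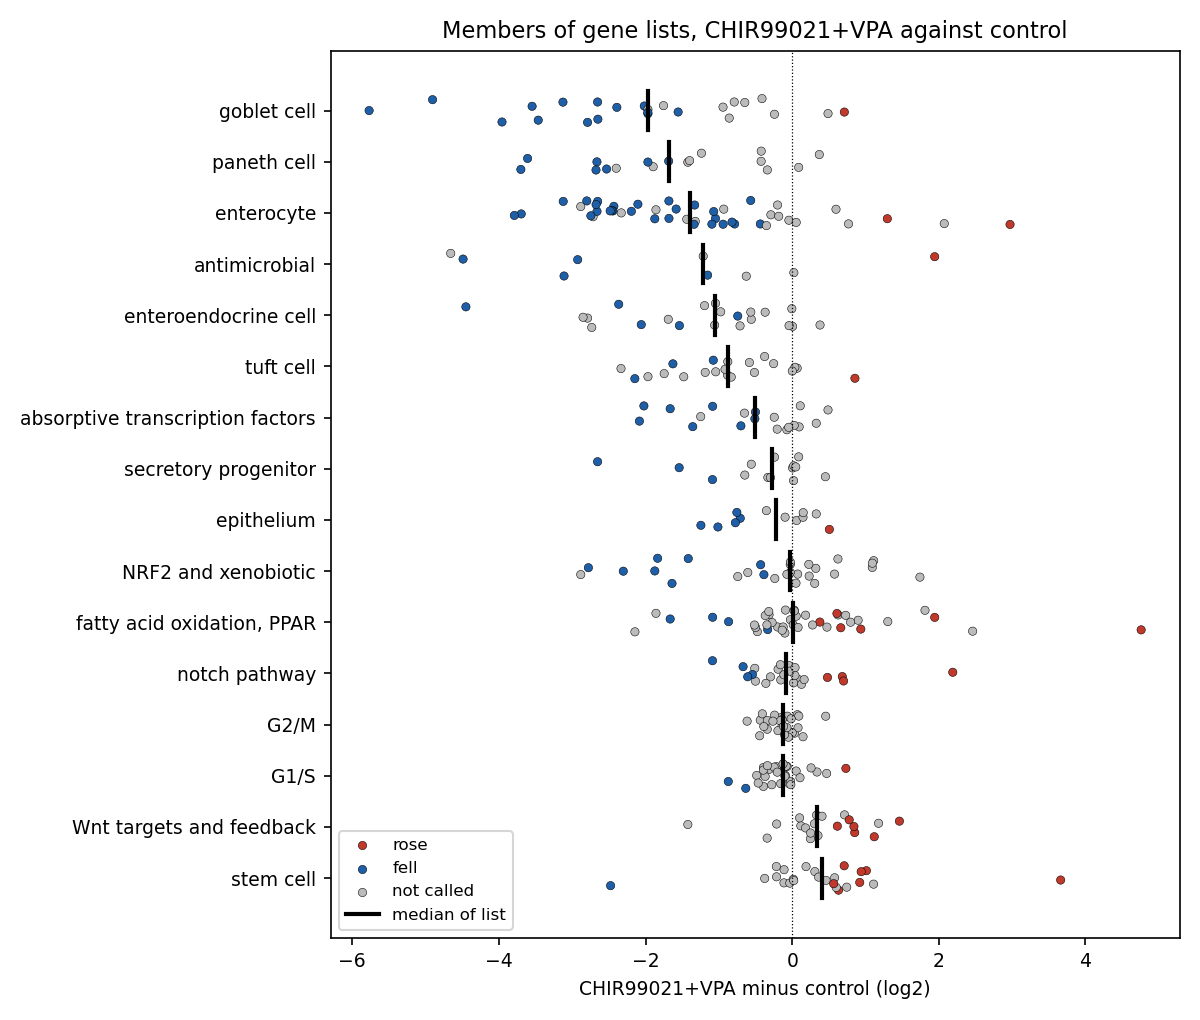
Each point is a tested gene of one of 16 lists, placed at its CHIR99021+VPA minus control difference (log2), red where it rose, blue where it fell and grey where it was not called; black bars are list medians. The goblet (-1.97), Paneth (-1.69) and enterocyte (-1.39) medians lie well below 0, and the stem cell (0.41) and Wnt (0.34) medians above it.

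Few cell division genes were called, beside 15.5% of all genes. None of 29 tested G2/M genes passed limma's test in either direction, 3 fell with the line as a block and the median difference was -0.12, and of 31 G1/S genes 1 rose and 2 fell. Mki67, the proliferation antigen, had log2 ratios of -0.25 and -0.15 with CHIR99021+VPA, against -0.36 and -0.34 in control medium (difference 0.15 ± 0.23, adjusted p = 0.736). Ccnb1, cyclin B1, had -0.44 ± 0.12 (adjusted p = 0.058, 0.0444 with the line as a block). Thymidine kinase, Tk1, stood at -0.94 and -0.93 with the compounds and -0.12 and -0.02 without, a fall of 0.87 (adjusted p = 0.00659), and cyclin E1, Ccne1, rose by 0.73 ± 0.18. Of 7 tested inhibitors of cyclin-dependent kinases 1 rose and 1 fell. Cdkn2b, p15, had -1.68 and -1.78 with CHIR99021+VPA and -0.06 and -0.05 in control medium (difference -1.68 ± 0.11, adjusted p = 0.000713), and Cdkn2d, p19, had 0.67 and 0.89 with CHIR99021+VPA and -0.19 and -0.10 in control medium (difference 0.93 ± 0.10, adjusted p = 0.00301). Cdkn1a, p21, stood at 1.65 and 0.01 against 0.42 and 0.39 and differed in sign between the lines. Ccne1 lost its call without the CHIR99021+VPA array of line 1 (adjusted p = 0.135) and without either CHIR99021 array (0.0743). Adjusted p without the control array of line 1 and without that of line 2 was 0.0571 and 0.07 for Tk1 and 0.193 and 0.19 for Ccne1.

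Genes known to respond to histone deacetylase inhibitors gave 4 rises and 2 falls among 20 tested, beside 8.43% and 7.09% of all genes. H1f0, the replacement linker histone that such inhibitors raise in many cells, had log2 ratios of 0.69 and 0.41 with CHIR99021+VPA, against -0.60 and -0.54 in control medium. The groups did not overlap, as at 60% of all genes tested, and the difference was 1.12 ± 0.12 (adjusted p = 0.00235). Crip2 had 3.30 and 3.20 against 0.08 and 0.13 (adjusted p = 7.46e-05), Mapt, the neuronal protein tau, 2.26 and 2.14 against 0.36 and 0.26 (1.89 ± 0.09, adjusted p = 0.000309), and Tubb2b, a neuronal tubulin, rose by 1.56 ± 0.18. Clusterin, Clu, fell by 1.16 and Crip1 by 0.85. Of 16 tested deacetylase genes, Sirt1, an NAD-dependent deacetylase, had -0.57 and -0.40 with the compounds and 0.75 and 0.51 without (difference -1.11 ± 0.14, adjusted p = 0.00433), Hdac7 fell by 0.89 and 14 were not called. Hdac7 (adjusted p = 0.0627) and Clu (0.103) lost their calls without the CHIR99021+VPA array of line 1, Clu also without that of line 2 (0.101) and without either CHIR99021 array (0.0584). Adjusted p without either control array, line 1 first, was 0.135 and 0.133 for Hdac7 and 0.172 and 0.202 for Clu, and for Sirt1 it was 0.0517 without that of line 1.

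Genes linked to a fetal-like or repair state were mixed, with 1 rise and 3 falls among 13 tested. Of all genes, 8.43% rose and 7.09% fell, and the other lists of this paragraph stand beside the same shares. Anxa1, annexin A1, rose, with log2 ratios of 2.52 and 2.41 with CHIR99021+VPA and -0.04 and -0.11 in control medium (difference 2.54 ± 0.50, adjusted p = 0.0188), while Clu and Msln, mesothelin (-2.34 ± 0.59), fell. In the M cell list 1 of 9 tested genes rose and 2 fell: Anxa5, annexin A5, rose by 1.91 ± 0.31, and the chemokines Ccl9 and Ccl20 fell by 3.11 and 1.28. Of 12 epithelial genes 5 fell and 1 rose, 2 fell and 0 rose without either control array, and 4 fell and 0 rose without the CHIR99021+VPA array of line 1. Krt8, a keratin of simple epithelia, had -0.82 and -1.02 with the compounds against 0.07 and 0.11 without (difference -1.01 ± 0.12, adjusted p = 0.00326), Lgals4, galectin-4, fell by 1.25, and Cdh1, E-cadherin, rose by 0.51 ± 0.10. Vim, vimentin, a mesenchymal intermediate filament, had ratios of 1.49 and 4.25 with CHIR99021+VPA and 0.04 and 0.00 in control medium. It was higher in both lines, most in line 2, with a difference of 2.85 ± 1.1 that did not pass (adjusted p = 0.137, 0.0371 with the line as a block). Of the 10 mesenchymal genes 1 rose and 0 fell, with differences from -0.60 for Pdgfrb to 2.85 for Vim, and 3 rose with the line as a block. The gene that rose, Col1a1, a collagen chain (adjusted p = 0.00669), was not well above background on either control array, so its rise has no size here, and its other probes gave -0.03 and 0.20. Pdgfra, a receptor of stromal cells, was not well above background on the control arrays either and did not pass (adjusted p = 0.0522, 0.0142 with the line as a block). None of 9 immune genes passed limma's test, 1 (Lyz2, a lysozyme of myeloid cells) had an unadjusted p under 0.05, and of 4 endothelial genes 1 fell and 0 rose. Vwf, von Willebrand factor, fell by 0.36 (adjusted p = 0.0457), and a second Vwf probe gave -0.13. Esam, an adhesion molecule of endothelial cells, had a difference of 1.01 ± 0.31 (adjusted p = 0.0749, 0.0155 with the block) and Plvap, of endothelial vesicles, one of 0.33 ± 0.10 (adjusted p = 0.0756, 0.0472 with the block). The part of any such cells in the results was not tested. Anxa1 (adjusted p = 0.0731) and Msln (0.0778) lost their calls without the CHIR99021+VPA array of line 1, and Msln also without either CHIR99021 array (0.0767). When the control array of line 1 or that of line 2 was left out, adjusted p was 0.118 and 0.121 for Anxa1, 0.186 and 0.203 for Msln, 0.0852 and 0.0756 for Anxa5, 0.0537 and 0.0531 for Ccl9 and 0.0713 and 0.0556 for Col1a1. Lgals4 had 0.0507 without the control array of line 2, Cldn3, a claudin, 0.0546 without that of line 1, and Krt18, a keratin, 0.117 and 0.099 without either. Vwf had 0.176 and 0.063 without the CHIR99021+VPA array of line 1 and of line 2, 0.178 and 0.249 without the control arrays and 0.0852 without either CHIR99021 array.

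Set against its single compounds, the combination differed from CHIR99021 at 1930 genes (10%; 1196 higher, or 6.21%, and 734 lower, or 3.81%) and from VPA at 215 (1.12%; 17 higher, or 0.0883%, and 198 lower, or 1.03%). These comparisons share the CHIR99021+VPA arrays, and the differences from control share the control arrays. Rises were 62% of the calls against CHIR99021, 79.1% of 1155 calls with median centring and 51.9% of 2031 with the authors' own deposited ratios. Against control, CHIR99021 alone changed 216 genes (1.12%) and VPA alone 2090 (10.9%; 6.58% higher, 4.27% lower). Over the 1623 genes that rose with CHIR99021+VPA, the median difference from control was 0.724 with CHIR99021+VPA, 0.565 with VPA and 0.156 with CHIR99021. Over the 1366 that fell with CHIR99021+VPA it was -0.754, -0.484 and -0.281. Both sets were chosen by the combination's own test against control, which in part builds in its larger medians. With limma, 0 genes passed for the interaction, the test of whether the combination departs from the sum of the 2 single differences, and 511 had an unadjusted p under 0.05. That is fewer of the 19254 genes than a threshold of 0.05 passes on average where no gene departs. With 2 arrays a group, the lack of calls does not show that the single differences add up. Against VPA the count was 28 when the background model was fitted on all spots, 613 with the line as a block, 7 without either control array, 84 and 137 without the CHIR99021+VPA array of line 1 and of line 2, 171 and 41 without the VPA array of line 1 and of line 2, and 77 without either CHIR99021 array. Against CHIR99021 it was 3414 with the block, 366 and 287 without the CHIR99021 array of line 1 and of line 2, 709 without either control array, and 789 and 1946 without the CHIR99021+VPA array of line 1 and of line 2.

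**Figure D4:**
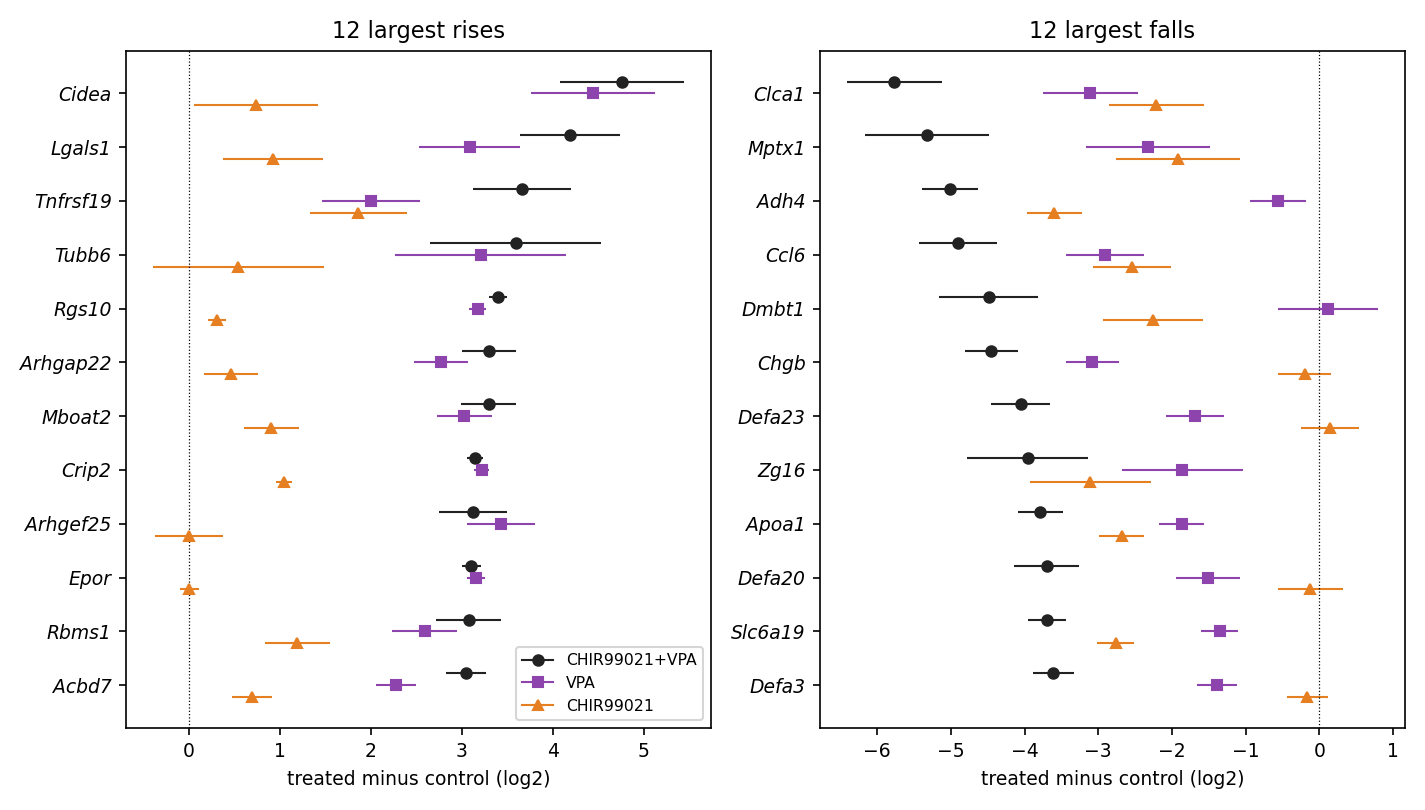
Differences from control (log2, points; bars are SE) of the 12 largest rises (left) and 12 largest falls (right) with CHIR99021+VPA (black circles), VPA (purple squares) and CHIR99021 (orange triangles). Rgs10, Epor, Crip2 and Arhgef25 lie at nearly the same place with VPA as with the combination, and Adh4 and Dmbt1 lie far lower with the combination than with VPA.

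The genes differed in which single compound they resembled. Epor had log2 ratios of 3.12 and 3.08 with CHIR99021+VPA, 3.04 and 3.26 with VPA, 0.03 and -0.04 with CHIR99021 and 0.01 and -0.02 in control medium, and Rgs10 had 3.29 and 3.38 with CHIR99021+VPA, 3.16 and 3.07 with VPA, 0.31 and 0.18 with CHIR99021 and -0.01 and -0.11 in control medium. For both genes the VPA arrays stood beside the combination and the CHIR99021 arrays beside control. Cdkn2b was the reverse, at -1.68 and -1.78 with CHIR99021+VPA, -0.12 and -0.32 with VPA, -1.29 and -1.48 with CHIR99021 and -0.06 and -0.05 in control medium, and it was lower with the combination than with VPA (adjusted p = 0.00959). Lgr5 was highest with CHIR99021 in line 1, at 1.28 and 0.74 over the lines, against 0.24 and -0.52 with VPA. Tnfrsf19 was higher on both combination arrays than on any array of VPA (2.72 and 1.23) or CHIR99021 (2.44 and 1.23), though the difference from VPA did not pass (adjusted p = 0.235). Medians over the stem cell list were 0.41 with the combination, 0.04 with VPA and 0.42 with CHIR99021, each as a difference from control. Over the Wnt target and feedback list they were 0.34, 0.27 and 0.25 in the same order. Of that list's 20 tested genes, 3 rose with VPA alone and 1 with CHIR99021 alone, and 0 fell with either. Of all genes tested, 6.58% rose and 4.27% fell with VPA alone, and 0.114% rose and 1.01% fell with CHIR99021 alone.

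Paneth genes showed a contrast between compounds. Defa22 had log2 ratios of -2.48 and -2.18 with CHIR99021+VPA, -0.81 and -1.19 with VPA, 0.33 and 0.21 with CHIR99021 and 0.31 and 0.36 in control medium. The CHIR99021 and control arrays lay close together, and the combination was below VPA (difference -1.33 ± 0.16, adjusted p = 0.0243). Over the Paneth list the median difference from control was -1.69 with the combination, -0.90 with VPA and 0.09 with CHIR99021. With the combination, 4 members were lower than with VPA and 11 lower than with CHIR99021, beside 1.03% and 3.81% of all genes. Lyz1 was higher with CHIR99021 (0.91 and 0.81) and lower with the combination (-1.38 and -1.13) than in control medium (-0.02 and -0.01). Neither difference from control passed (adjusted p = 0.333 and 0.0501), and the combination was below CHIR99021 (difference -2.11 ± 0.33, adjusted p = 0.01375). The goblet medians were -1.97, -1.16 and -0.68 in the same order.

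Enterocyte and fat genes separated the combination from VPA. Fabp1 had log2 ratios of -2.14 and -0.72 with CHIR99021+VPA, 3.22 and 1.95 with VPA, -0.95 and -2.01 with CHIR99021 and 0.36 and 0.49 in control medium. Both VPA arrays were far above all the others, and the combination was below VPA (difference -4.01 ± 0.60, adjusted p = 0.0395). Fabp2, the intestinal fatty acid binding protein, had -2.39 and -0.42 with CHIR99021+VPA, 2.24 and 2.36 with VPA, -2.08 and -1.49 with CHIR99021 and 0.04 and 0.03 in control medium, and was lower than with VPA (difference -3.71 ± 0.57, adjusted p = 0.0415). Adh4 (-4.45 ± 0.38), Dmbt1 (-4.61 ± 0.68) and the carboxylesterase Ces1f (-3.49 ± 0.47) were the other largest falls against VPA. With the compared groups fitted alone, none of these 5 falls passed (adjusted p from 0.154 to 0.384). Fabp1, Fabp2, Dmbt1 and Ces1f did not pass with the background model fitted on all spots (0.0608 to 0.0773). They did not pass with the scanner software's ratios either (0.0743 to 0.0997). Of the 41 fatty acid oxidation and PPAR genes, 11 were lower with the combination than with VPA and 0 higher, beside 1.03% and 0.0883% of all genes. Against CHIR99021, 13 were higher and 1 lower, beside 6.21% and 3.81% of all genes. The median difference of these 41 genes from control was 0.01 with the combination, 0.93 with VPA and -0.28 with CHIR99021. Reg3g, at 3.80 and 3.87 with VPA and -2.70 and -2.29 with CHIR99021, led the rises of the combination against CHIR99021 (4.96 ± 0.38, adjusted p = 0.00198). All 5 falls against VPA lost their calls without either control array, with adjusted p of 0.14 for Fabp1, 0.147 for Fabp2, 0.133 for Dmbt1, 0.0881 for Adh4 and 0.117 for Ces1f. Fabp1, Fabp2, Dmbt1 and Ces1f also lost them without either VPA array or either CHIR99021 array (adjusted p from 0.0624 to 0.185), and Fabp1 without the CHIR99021+VPA array of line 1 (0.0907).

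The 5 largest rises against VPA were Cubn, Prpf19, Pla2g1b, Ifitm1 and Foxq1. Cubn exceeded both single compounds, with 3.30 and 3.10 with CHIR99021+VPA, 1.44 and 0.87 with VPA, 0.49 and 0.82 with CHIR99021 and 0.24 and 0.22 in control medium, for a difference from VPA of 2.05 ± 0.21 (adjusted p = 0.0176). Ifitm1, an interferon-induced membrane protein, stood at 1.07 and 1.18 with CHIR99021+VPA, 0.30 and 0.39 with VPA, 0.33 and 0.38 with CHIR99021 and 0.09 and 0.11 in control medium, close between lines in every group. Prpf19, a splicing factor, had -0.13 and -0.03 with the combination and -0.60 and -0.41 in control medium, with VPA the low group at -1.22 and -0.98. The calls of Prpf19, Pla2g1b, Ifitm1 and Foxq1 against VPA ended without any one of the 8 arrays, with adjusted p between 0.0509 and 0.184. That of Cubn ended without either control array (0.0987), without the CHIR99021+VPA array of line 1 (0.0511), with the background model fitted on all spots (0.0608), with the scanner software's ratios (0.212), with the authors' deposited ratios (0.136) and with the compared groups fitted alone (0.239).

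Some genes were called against control and against each single compound in the same direction: 7 higher (0.0364% of the genes tested) and 30 lower (0.156%). These counts were 0 and 2 without the control array of line 1 and also without that of line 2, 0 and 6 with the background model fitted on all spots, 0 and 7 with the scanner software's ratios, 0 and 0 with the compared groups fitted alone, and 27 and 99 with the line as a block. Without the CHIR99021+VPA array of line 1 they were 2 and 10, and without that of line 2 they were 4 and 61. The 33 of them with a symbol are drawn in the plot of genes past both compounds. Of the goblet and Paneth lists, Agr2, Fcgbp, Tff3, Ang4, Defa3 and Defa22 were among those that fell. Slc28a3, a nucleoside transporter, had log2 ratios of -2.43 and -2.28 with CHIR99021+VPA, -1.10 and -1.12 with VPA, -1.69 and -1.62 with CHIR99021 and 0.31 and 0.30 in control medium. Every treated array lay below both control arrays, and the combination was lowest in both lines. Slc51a, a subunit of the bile acid exporter, had -2.46 and -2.42 with CHIR99021+VPA, -0.34 and -0.28 with VPA, -1.43 and -1.75 with CHIR99021 and 0.18 and 0.17 in control medium. Pdzk1, a scaffold of apical transporters, had -3.03 and -3.05 with CHIR99021+VPA, -2.23 and -2.27 with VPA, -1.53 and -1.70 with CHIR99021 and -0.17 and -0.08 in control medium. Cyp2b10 was low with both compounds and nearer to control with each alone, at -3.32 and -2.12 with CHIR99021+VPA, 0.17 and 0.01 with VPA, 0.02 and -0.75 with CHIR99021 and 0.00 and 0.11 in control medium, while its interaction of -2.39 ± 0.57 did not pass limma's test. Among the 7 higher were Cubn and the lysosomal genes Glb1, beta-galactosidase (0.80 ± 0.08 from control), and Atp6v1h, of the proton pump (0.94 ± 0.10). Slc28a3, Slc51a, Pdzk1, Glb1 and Atp6v1h were chosen after their values were seen.

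**Figure D5:**
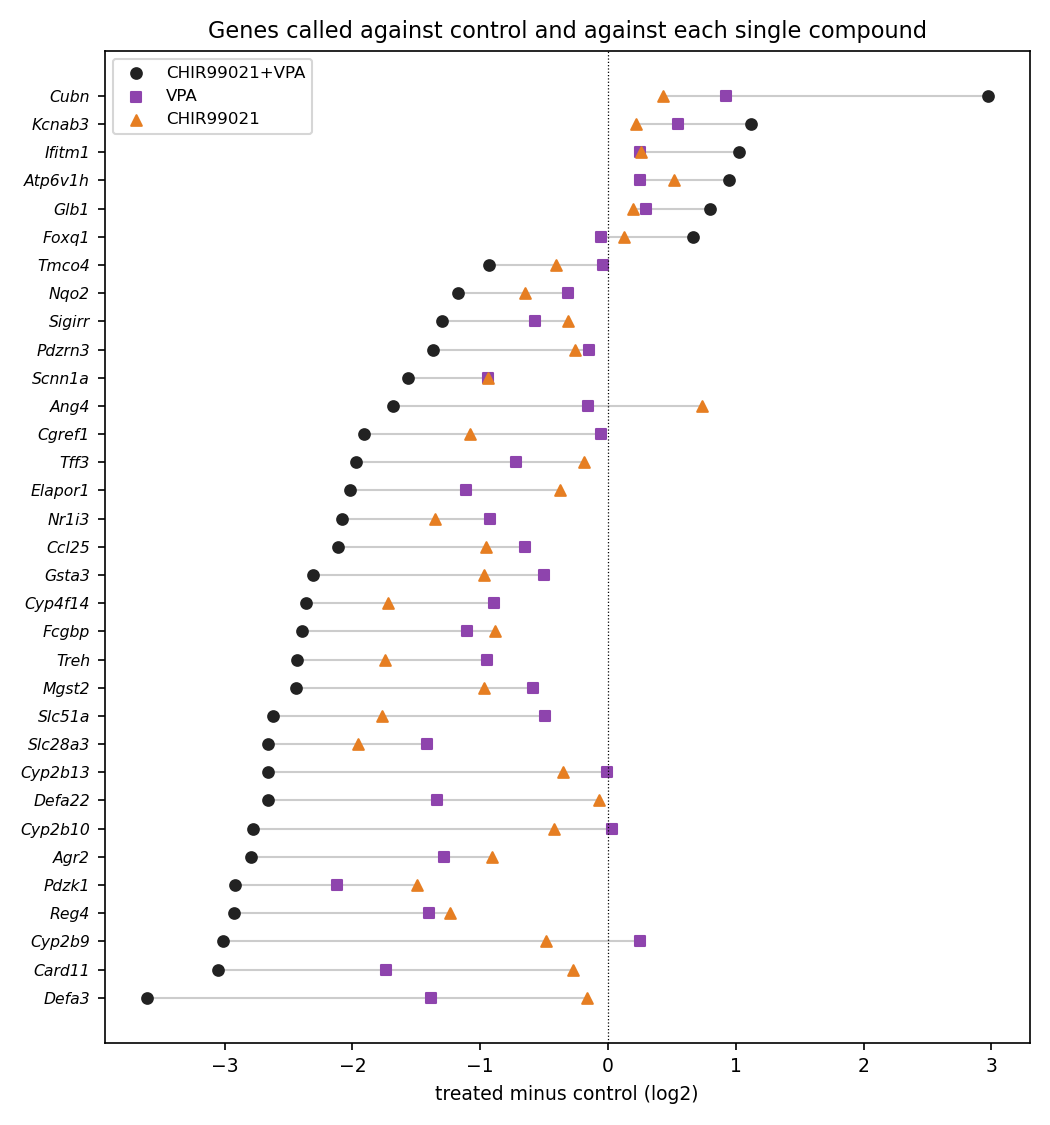
Differences from control (log2) with CHIR99021+VPA (black circles), VPA (purple squares) and CHIR99021 (orange triangles) for the 33 genes with a symbol that were called against control and against each single compound in the same direction. By the rule that chose the genes, the black circle is the outermost point in each row, on the right for rises and on the left for falls.

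Promoters were searched for 2 motifs in the 250 bases before each gene's start, on both strands, in RefSeq promoters of GRCm38.p6. The TCF/LEF core, CTTTGAT or CTTTGAA, was in 8.63% of 27025 promoters, in 3 of 15 matched Wnt list genes (Mmp7, Sp5 and Tiam1) and in 0 of the 6 that rose. The PPAR direct repeat, AGGNCANAGGNCA, was in 0.4% of promoters, in 1 of 31 matched fat genes (Fabp1) and in 0 of 5 matched risers. Shown are the promoter stretches of the 2 motif holders that were called in a comparison with a single compound, Fabp1 against VPA and Mmp7, a Paneth protease and Wnt target, against CHIR99021 (difference -2.08 ± 0.48, adjusted p = 0.044), both chosen after their values were seen. Capitals mark the motif, which in both lies on the opposite strand. The Fabp1 repeat starts 67 bases before the start of the gene (GRCm38.p6 chr6:71199752-71199878, plus strand) and the Mmp7 core 247 bases before (chr9:7692091-7692160, plus strand).
Fabp1: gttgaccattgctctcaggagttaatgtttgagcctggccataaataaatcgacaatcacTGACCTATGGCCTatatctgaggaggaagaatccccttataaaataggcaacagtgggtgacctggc
Mmp7: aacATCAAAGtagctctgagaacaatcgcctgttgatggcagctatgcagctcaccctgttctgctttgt
A match is a description of these letters and not a measured binding site.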

How the data were processed

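RNA of each culture was labelled with Cy5 and control RNA of the same line with Cy3 and hybridised to Agilent arrays, per the labels' protocols. The deposited intensity values are median pixel brightness of spots and local backgrounds written by the scanner software (Agilent Feature Extraction, version 10.5.1.1, as the file headers state), with no background subtracted. The deposited log10 ratio of Cy5 over Cy3 was background-subtracted and dye-normalised by that software, per the file headers. The deposited series table of the authors holds log2 ratios that equalled these within 5e-10 at all of its 19228 spots, so its scale and direction are known and no centring was added. Its column medians were -0.00804 and -0.00265 for CHIR99021+VPA, -0.0284 and -0.0239 for VPA, 0.0169 and 0.0361 for CHIR99021 and 0.00393 and 0.00566 for control. The rule by which the authors chose its spots is not stated in the labels.

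Median signals were background-corrected in limma 3.58.1 (R 4.3.3) with normexp and an offset of 50, then put through loess array by array, with a weight of 0 for control spots. Spots with outlier flags were left out of the fit and of the background model, which was chosen after seeing the data. Flags for an outlying local background were not used, because their use removed many genes, and that choice too came after seeing the data. Spots of a probe were averaged, and the brightest probe stood for a gene. A gene entered the test if some group had Cy5 well above background on both of its arrays, and 79 lacked values after that. Of 41174 probes, 27479 had a symbol through their RefSeq accession. Genes and list members without a kept probe, such as Muc2 and Olfm4, were not analysed here, and 1 called list member is not reported here.

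All 8 arrays were fitted as 4 groups without covariates by lmFit and eBayes (4 residual and 2.683 prior degrees of freedom), with Benjamini-Hochberg adjustment and a threshold of 0.05, and every adjusted p comes from limma. The script was tested on simulated data. Replicate numbers stand for organoid lines in the labels, so the samples are paired by line. Same-line deviations correlated across genes in all 6 pairs of groups (r from 0.122 to 0.755, and 0.122 for CHIR99021+VPA with control). Each line also had a slide of its own, so line and slide cannot be told apart, and each slide held all groups. Leaving out an array leaves a lone sample that is assumed to vary like the other groups.

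The genes named were 18 fixed markers, the 12 largest rises and falls against control and the 5 largest against each single compound that had a symbol and passed the threshold, and, from each list, at most the 4 members of lowest adjusted p. Other list members named as examples were chosen after their values were seen. The members and lists were chosen with earlier results of these data known. Promoters came from RefSeq (GRCm38.p6), and the rule for those printed was widened after seeing that no list member called against control held its motif. A ratio between brightness values gives no level between genes.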

Additional observations from a re-analysis of the deposited data

Results flagged for a closer look

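Cdkn1a, which encodes the cell cycle inhibitor p21, moved in opposite directions in the lines. Its CHIR99021+VPA minus control difference was 1.23 in line 1 and -0.385 in line 2 on the log2 scale. Reg3b, an antimicrobial lectin, did so more strongly, with differences of 1.84 and -4.26. The difference between lines was not tested, since each line had 1 array a group.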

How the results depend on the processing

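Of 2989 genes changed against control, all 2989 were also called with the line as a replicate block, among 4815, and testing the treated ratios against 0 gave 7791. Leaving out each array in turn gave 542 to 3248. Against VPA the 215 became 28 with the background model fitted on all spots, 34 with the scanner software's ratios, 613 with the block, 0 with the compared groups fitted alone (limma, 1446 at an unadjusted p under 0.05), and 7 to 171 with an array left out. Against CHIR99021 the 1930 became 1155 with median centring, 3414 with the block, 289 with the compared groups alone, and 287 to 2057 with an array left out. The interaction gave 0 genes with the block too (815 at an unadjusted p under 0.05), and 0 to 1 with an array left out. The other alternatives, which were other filters on dim probes, the mean of all probes, a trend with robust fitting, the authors' ratios and leaving out outlying local backgrounds (chosen after seeing the data), kept each count within 1.5 times. Some of them tested other numbers of genes than 19254: 13662 with the authors' ratios, 16061 without outlying local backgrounds, and 32003 and 16644 with the other filters. The authors' ratios gave 3079 calls against control, 2616 of them among the 2989. Of 122 named results, 90 passed in the fit reported. Without the control array of line 1, 44 lost the threshold, without that of line 2, 41, without the CHIR99021+VPA array of line 1, 14, and without that of line 2, 6. The block ended 0 calls and added 15. Results that reversed were Mki67 (-0.20 with treated ratios against 0), and, without the CHIR99021+VPA array of line 1, Cdkn1a (-0.400, against 1.24 without that of line 2) and Cdkn1c (-0.072, against 0.977 without that of line 2), none of them called. The cause of these changes was not tested. Values for single probes moved most for dim genes, and signal near background limits Tnfrsf19, Slc6a19, Slc13a1, Pax4, Rfx6, Lef1, Hpgds, Hey1, Pdgfra and Col1a1.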
